A study of Macaca mulatta with 12 samples.

Results

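The microRNA miR-22 of the rhesus macaque (Macaca mulatta) was followed through 12 small RNA profiles of 8 tissues. Its pre-miRNA, mml-mir-22, is 1 of 832 pre-miRNAs with a usable sequence in the study's list. It was selected on its level by tissue, its arm ratio, its length variants and its non-templated 3’ nucleotides, so these values are descriptions and carry no test. The study set out to annotate macaque miRNAs and their edited forms. All samples were from wild-type animals of 36 months without treatment. There were 2 profiles each of muscle, kidney, large intestine and small intestine, and a single profile of lung, liver, occipital lobe and spinal cord. The study used more than one animal, and the sources used here do not tie a profile to an animal, so the spread between the profiles of a tissue may be technical. Each profile held between 22118095 and 25579064 reads.

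A miRNA is cut from a hairpin by Drosha in the nucleus and Dicer in the cytoplasm. Usually 1 strand of the resulting duplex stays in an Argonaute protein and pairs with target mRNAs through its seed, bases 2 to 8. miR-22 is conserved among vertebrates and is best known from heart and skeletal muscle, where it has been studied in hypertrophy and metabolism. After cutting, the 3’ end of a miRNA can be trimmed or receive nucleotides that the genome does not encode. In the RefSeq gene table of assembly T2T-MMU8v2.0, mir-22 is a synonym of TLCD2, a protein-coding gene beside PRPF8. No coordinates are given because the build of the profiles was not matched to that assembly.

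The hairpin is shown to place both arms, with the reads' positions in capitals, written from 5’ to 3’. The 3p arm is the mature sequence of the study's list. No 5p sequence was taken from that list, so the most abundant read of the other arm stands for it.

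mml-mir-22 hairpin (arms in capitals): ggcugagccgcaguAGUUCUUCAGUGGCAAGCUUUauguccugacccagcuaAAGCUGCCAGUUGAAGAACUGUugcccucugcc

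miR-22-3p (seed in capitals): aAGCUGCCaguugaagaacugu

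miR-22-5p (seed in capitals): aGUUCUUCaguggcaagcuuu

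The hairpin has 85 nucleotides, with the 5p arm at positions 15 to 35 and the 3p arm at positions 53 to 74. The folding program RNAfold gave a minimum free energy of -39.8 kcal/mol. In that structure the 3p arm ended 2 nucleotides beyond the base opposite the 5p start, which is the overhang that Drosha typically leaves. The 21-nucleotide 5p read left an overhang of 1 nucleotide on the loop side, and the 5p read of 22 nucleotides left 2. Neither arm was found in another of the hairpins used, and among their 1221 mature sequences no other had either seed. The reads of miR-22 were therefore not shared with a copy in this part of the list.

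miR-22-3p was highest in muscle, second in liver and, on the scale of valid reads, lowest in both parts of the intestine. Its level was counted as reads per 10000000 valid reads (RPTM) that matched the hairpin exactly with both ends within 2 nucleotides of the mature sequence. It reached 232300 RPTM in muscle 1 and 303009 RPTM in muscle 2. Liver had 105946 RPTM. Kidney 1, the highest of the other profiles, had 46353 RPTM, so muscle and liver did not overlap any of them.

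Lung had 44191 RPTM and spinal cord 42612 RPTM. Kidney 2 had 35202 RPTM, so both single profiles lay between the 2 kidney profiles. The second neural tissue, the occipital lobe, had 22881 RPTM. The values of the small intestine were 19444 and 15692 RPTM, and those of the large intestine were 14683 and 16927 RPTM, so the 2 parts of the intestine overlapped as well.

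The order was read against the spread within the 4 tissues with 2 profiles, whose pooled SD was 0.24 on the log2 scale of RPTM plus a pseudocount of 1. The gap from muscle to liver was 1.32, that from liver to lung 1.26, that from kidney to occipital lobe 0.82 and that from occipital lobe to small intestine 0.39. All 4 exceeded that SD. The gaps among lung, spinal cord and kidney, and the gap between small and large intestine, lay inside it. From highest to lowest tissue the mean log2 level spanned 4.07, a 16.8-fold difference. The 2 profiles of a tissue differed between 1.15-fold in the large intestine and 1.32-fold in the kidney. With TMM factors or DESeq2 size factors in place of valid reads, muscle, liver and kidney held the first 3 places, and spinal cord and occipital lobe moved to the last 2.

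**Figure D1:**
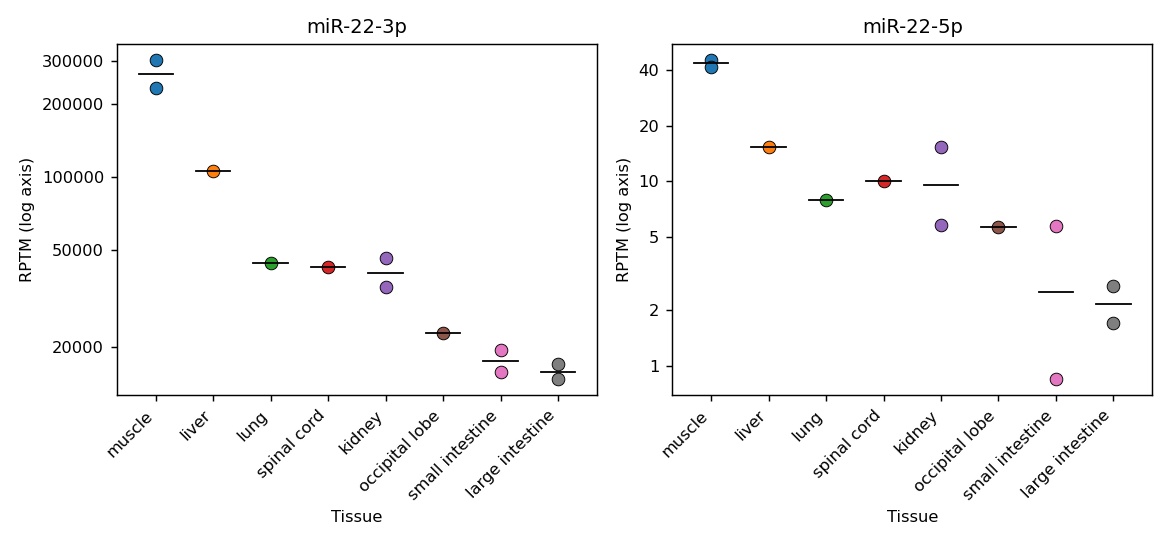
Level of miR-22-3p (left) and miR-22-5p (right) in RPTM on log axes, with 1 point per profile and a line at the mean of each tissue on the log2 scale. Muscle stands above all other tissues for both arms, at 232300 and 303009 RPTM for 3p and at 45.5 and 41.8 RPTM for 5p.

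Among the 1221 mature sequences used, miR-22-3p was the 5th most abundant in both muscle profiles and the 9th in liver. In the occipital lobe it was the 26th, its lowest rank. Its reads made up 3.94% and 4.99% of the reads assigned to these sequences in muscle 1 and 2, against 0.247% in small intestine 2. A bulk profile cannot tell fewer cells of a type from less RNA per cell.

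Marker miRNAs of the labelled tissues were checked, each list being summed in RPTM. The 6 muscle miRNAs, such as miR-133a-3p and miR-206-3p, summed to 137181 and 158221 RPTM in muscle and to at most 944 RPTM elsewhere, in large intestine 2. The 5 neural miRNAs summed to 400162 RPTM in the occipital lobe and 291376 RPTM in the spinal cord, and to at most 1175 RPTM elsewhere. miR-122a-5p, the liver marker, had 7320 RPTM in liver and at most 4.37 RPTM elsewhere. The 3 intestinal miRNAs were highest in small intestine 1 at 2063772 RPTM, but liver, with 1214181 RPTM, stood above the large intestine. The sum of the 2 kidney miRNAs was highest in kidney 1 and 2, but muscle also had 1745426 and 1409248 RPTM, nearly all from miR-10b-5p. The other kidney miRNA, miR-204-5p, was higher in the occipital lobe (19591 RPTM) than in kidney 2 (19045 RPTM). The 2 miRNAs of ciliated epithelium, like the single endothelial marker miR-126-3p, were highest in lung. The 4 leukocyte miRNAs ranged from 465 RPTM in kidney 2 to 10401 RPTM in lung. miR-143-3p, the smooth muscle marker, ranged from 103028 RPTM in the occipital lobe to 3567909 RPTM in large intestine 2.

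The 3 erythroid miRNAs summed to 450112 RPTM in muscle 1 and 820858 RPTM in muscle 2, the highest of all profiles, and to 9396 RPTM in large intestine 1, the lowest. Most of that sum was miR-486-5p, which is also known from muscle. The other members were high in muscle 2, as it was, but not in muscle 1. miR-451-5p, which is more restricted to red cells, had its highest value, 5006 RPTM, in muscle 2. It had 295 RPTM in muscle 1, below lung (1362 RPTM), liver (663 RPTM), spinal cord (362 RPTM) and kidney 2 (308 RPTM). miR-144-3p, from the same cluster as miR-451, was highest in lung at 242 RPTM and had 18.4 RPTM in muscle 1 and 200 RPTM in muscle 2. The part of blood in the level of miR-22-3p was not tested.

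The 5p arm was rare in every profile. It had 377 reads in all against 2131247 reads of the 3p arm. Muscle 1 had 109 reads (45.5 RPTM) and muscle 2 had 96 reads (41.8 RPTM), above all other profiles. Kidney 1 followed with 39 reads, liver with 38 reads and spinal cord with 24 reads, and small intestine 2 had 2 reads, the lowest. Between neighbouring tissues, 2 gaps exceeded the pooled SD of 0.81 on the log2 scale, those from muscle to liver (1.45) and from occipital lobe to small intestine (0.92). The second rests on means, since small intestine 1 had 5.73 RPTM and the occipital lobe 5.65 RPTM. It kept its direction with reads assigned to miRNAs as the scale and turned with TMM factors and DESeq2 size factors. The mean log2 levels of occipital lobe and small intestine were 3.47 and 2.26 with assigned reads. They were 1.81 and 2.08 with TMM factors and 1.77 and 2.22 with DESeq2 size factors. Over the 12 profiles the log2 levels of both arms had a Pearson r of 0.94, which describes values that come from the same libraries and the same hairpin.

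The 5p share of the arm reads had a median of 0.0181% over the profiles, and of 0.00830% when reads identical to the 2 printed arms were counted alone. It was lowest in small intestine 2 at 0.00538%, with a 95% Wilson interval from 0.00147% to 0.0196%. It was highest in kidney 1 at 0.0329%, with an interval from 0.0241% to 0.0449%. Kidney 2 had 0.0164%, and the intervals of the 2 kidney profiles overlapped. Muscle had 0.0196% and 0.0138%, and liver had 0.0145%. These 3 shares lay inside the range of the other profiles. These intervals cover counting error only.

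**Figure D2:**
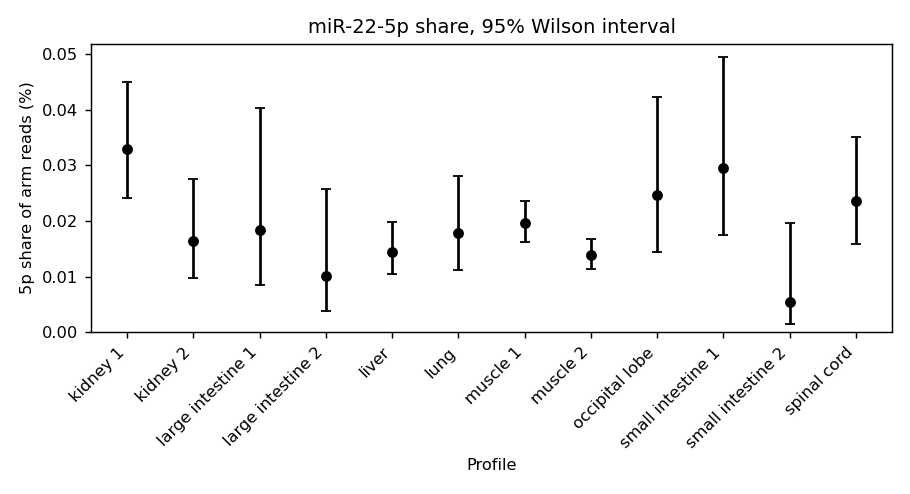
The 5p share of all miR-22 arm reads in percent, with 1 point per profile and 95% Wilson intervals. All 12 shares lie between 0.00538% and 0.0329%, and the interval of small intestine 2, with 2 reads, is among the widest relative to its value.

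The same share differed widely among 3 other pre-miRNAs chosen for comparison. The less abundant arm made up a median of 2.73% in mml-mir-21, whose main arm is 5p, and 16.5% in mml-mir-126, whose more abundant arm here was also 5p. In mml-mir-143 it was 0.00141%, lower than in mml-mir-22.

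The start of miR-22 was more uniform than its end. All 377 exact reads of the 5p arm began at the same nucleotide. Of the 3p reads, between 99.6% in small intestine 1 and 99.8% in muscle 1 began at the annotated nucleotide, which keeps the seed. A start 1 nucleotide later was found in 4426 reads, with a median of 0.262% of a profile.

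At the 3’ end, a median of 78.6% of the exact 3p reads had both annotated ends. The share was highest in muscle 1 (89.4%) and lowest in lung (69.9%). Reads 1 nucleotide shorter at the 3’ end were the main alternative. They made up 8.94% and 9.42% in muscle 1 and 2 and 27.0% in lung. Both kidney profiles (13.7% and 20.1%) lay between these, as did the large intestine (25.3% and 17.9%). The pooled SD within tissues was 3.47 percentage points. Reads 2 nucleotides shorter had a median of 2.04%, and reads 1 nucleotide longer 0.104%. Almost all remaining exact reads of the hairpin, 18956 of 19179 outside both arms, were a single form that started at the annotated nucleotide and ended 3 nucleotides early.

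The most abundant forms of miR-22-3p are printed because the differences lie in their last letters, with non-templated nucleotides in capitals. A tail was counted as the 1 or 2 last nucleotides that no longer followed the hairpin. Where a tail stands in place of templated letters, an added letter and a changed or misread letter cannot be told apart.

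annotated form: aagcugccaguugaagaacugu

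1 nt shorter with a C tail: aagcugccaguugaagaacugC

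1 nt shorter: aagcugccaguugaagaacug

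1 nt shorter with a G tail: aagcugccaguugaagaacugG

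2 nt shorter: aagcugccaguugaagaacu

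2 nt shorter with an AC tail: aagcugccaguugaagaacuAC

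annotated form with an A tail: aagcugccaguugaagaacuguA

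1 nt shorter with an A tail: aagcugccaguugaagaacugA

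The annotated form had 1800624 reads in all, the form with C in its place at the end 535316 reads, and the form 1 nucleotide shorter 284381 reads. The form with G had 66723 reads, the form with AC 22748 reads and the annotated form with A 12958 reads. All 8 forms were found in all 12 profiles. 5 of these 8 forms carried a tail. The form ending in C had more reads than the shorter templated form in 9 of the 12 profiles, and fewer in kidney 1, large intestine 2 and small intestine 1.

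The 4 most abundant reads of the 5p arm differed at their 3’ end only and carried no tail. They had 170 reads, 105 reads, 78 reads and 23 reads in all.

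5p, 21 nt: aguucuucaguggcaagcuuu

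5p, 22 nt: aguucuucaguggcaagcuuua

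5p, 20 nt: aguucuucaguggcaagcuu

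5p, 19 nt: aguucuucaguggcaagcu

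The muscle profiles differed in the 5p end. The 22-nucleotide form, which leaves the overhang of 2 on the loop side, made up 46.8% of 109 reads in muscle 1 and 10.4% of 96 reads in muscle 2.

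Non-templated tails were found on a median of 23.7% of the exact and tailed 3p reads, from 13.9% in large intestine 2 to 39.7% in large intestine 1. C tails (C or CC) made up most of them, with a median of 20.5%. The C share was 11.3% in kidney 1 and 28.3% in kidney 2. It was 34.1% in large intestine 1 and 9.84% in large intestine 2, the highest and the lowest value of all profiles in 1 tissue.

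Small intestine 1 and 2 had C tails on 15.7% and 22.9% of reads, and muscle 1 and 2 on 18.1% and 16.2%. In the tissues with 1 profile the share was 25.6% in liver, 26.3% in lung, 27.8% in the occipital lobe and 13.2% in the spinal cord. The pooled SD within tissues was 10.8 percentage points, so the C share did not separate tissues beyond the spread between profiles of the same tissue. Counting error was small beside it, with intervals of at most 0.40 percentage points to either side on 46258 to 869099 reads.

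The other tails were rarer. G tails had a median of 2.19%, from 0.663% in small intestine 2 to 3.96% in liver. A tails, the kind that poly(A)-polymerase-like enzymes add, had a median of 1.01%. They ranged from 0.557% in muscle 2 to 1.36% in small intestine 1, and both muscle profiles (0.646% and 0.557%) were below all others. The occipital lobe (0.679%) and the spinal cord (0.701%) came next, with gaps inside the pooled SD of 0.145 percentage points. U tails had a median of 0.121%, but the hairpin continues with U after the annotated end and after the end 1 nucleotide before it. A U added at either place has the letters of the template and could not be counted.

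**Figure D3:**
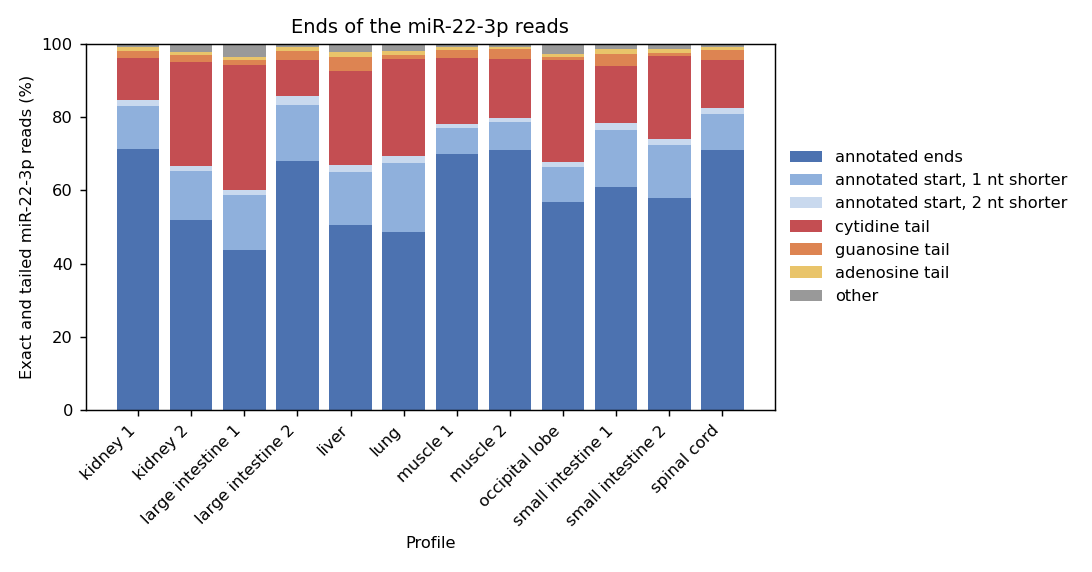
Composition of the exact and tailed miR-22-3p reads in percent for each of the 12 profiles, stacked by class of 3’ end. Cytidine tails take between 9.84% (large intestine 2) and 34.1% (large intestine 1), while the annotated form takes between 43.7% and 71.4%.

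The C tails depended on the templated end before them. After the end 1 nucleotide short of the annotated end, C followed in 536499 reads while 285114 reads carried no tail, a median of 58.5% of the reads with this end and at most 1 added nucleotide. After the annotated end, C followed in 1282 reads, a median of 0.0702%. A was the most frequent addition after the annotated end, with 13091 reads and a median of 1.08%. After the end 3 nucleotides short, where the hairpin also continues with U, C followed in a median of 43.7%. After the end 2 nucleotides short, where G comes next, it was 3.11%.

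Read at position 22 of the miRNA, the templated U stood in 1849517 reads, C in 544852 reads, G in 67965 reads and A in 4596 reads. Of the reads with C there, 98.2% ended at that nucleotide, and of the reads with U 97.4% did.

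The 3’ adapter of the library begins with T, G and G, and this bears on the tails. The G form has the letters of the form that ends 3 nucleotides early followed by these adapter letters, and the forms 1 and 2 nucleotides short have the letters of that form followed by its first letters. The form 1 nucleotide longer has the letters of the annotated form followed by the adapter's T. By letters alone, trimmed, extended or tailed ends and adapter remains cannot be told apart for these forms. Reads without a tail numbered 18988 at the end 3 nucleotides short, 39074 at 2 short and 285114 at 1 short. Beyond the annotated end, with 1804571 such reads, there were 2461 with the further letter U, 27 with UG and 1213 with UGG. The share of adapter remains was not tested. The C form cannot be read as adapter remains. In 23462 reads the first 5 letters of the adapter followed directly on position 22. Of these reads, whatever their letter at position 22, C stood there in 9.0% in large intestine 2 and in 46.1% in large intestine 1. Of all reads over position 22, again with any letter, C stood there in 11.9% and 42.4% in the same profiles.

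C tails were not restricted to miR-22-3p. The comparison used 73 other miRNAs with at least 500 exact reads in every profile and tails of 1 nucleotide. Their median C share was lowest in kidney 1 (4.42%) and highest in liver (12.2%). miR-22-3p was above that median in all 12 profiles, by 2.07-fold to 3.03-fold. By its own median over profiles, 20.4%, it was the 7th of the 74 miRNAs, behind miR-409-3p, miR-26a-1-5p, miR-381-3p, miR-30e-5p, miR-30c-1-5p and miR-186-5p. Over the 12 profiles, the C share of miR-22-3p and the median of the others had a Pearson r of 0.93, and both come from the same libraries.

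The last letter of the miRNA went with its C share, a grouping chosen after the values were seen. The 28 other miRNAs that end in U, as miR-22-3p does, had a median C share of 12.9%. The 21 that end in G had 3.94%, the 13 that end in A had 2.33% and the 11 that end in C had 2.03%. The ranges overlapped, from 5.25% to 26.8% for U, from 0.0954% to 24.8% for G, from 0.556% to 13.1% for A and up to 24.7% for C. In a miRNA that ends in C, a C in place of the last letter is templated and could not be counted, so the value of that group is limited by the definition of a tail.

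For A tails the position was the opposite. The median share of miR-22-3p with an A tail of 1 nucleotide was 0.993%, against 4.44% over the 73 others, of which 62 were above it. Over all kinds of tail, 38 of the 73 were above miR-22-3p.

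**Figure D4:**
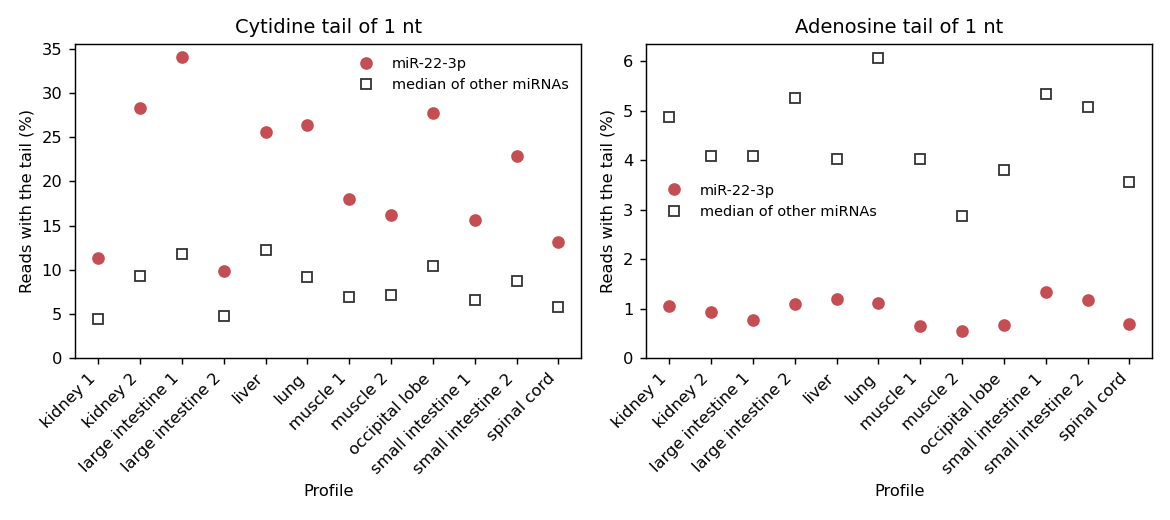
Percent of reads with a cytidine tail (left) and an adenosine tail (right) of 1 nucleotide in each of the 12 profiles, for miR-22-3p (filled) and as the median of 73 other miRNAs (open). miR-22-3p lies above the median for cytidine, by 2.07-fold to 3.03-fold, and below it for adenosine in every profile.

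The 3 comparison pre-miRNAs showed different ends. Annotated ends were found on a median of 32.6% of miR-21-5p reads, 43.6% of miR-143-3p reads and 97.2% of miR-126-5p reads, against 78.6% for miR-22-3p. The C share was 8.15% in miR-21-5p, 18.4% in miR-143-3p and 2.09% in miR-126-5p. Their annotated starts were kept in 99.4% to 99.9% of reads, near the 99.7% of miR-22-3p.

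On the 5p arm, 51 tailed reads were found beside the 377 exact reads. Of these, 38 had a C tail, 9 a G tail and 4 an A tail, too few to compare profiles.

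Single changes inside the sequence were the measure on which tissues could be tested, since it had no part in the selection of miR-22. Reads with 1 mismatch before the last 3 nucleotides made up a median of 4.80% of the 3p reads. Small intestine 2 had the lowest value (3.56%) and liver the highest (5.40%), and small intestine 1 had 5.06%. An exact permutation test of the spread between tissues over all 105 arrangements of the 8 profiles in tissues with 2 profiles gave p = 0.962 (Benjamini-Hochberg value over the 2 arms 0.962). The smallest p this design allows is 0.00952. The test is one-sided by construction. The p from the same exact test fell to 0.105 without small intestine 1.

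On the 5p arm, 15 changed reads were found in all and none in 6 profiles, and the exact permutation test gave p = 0.2 (Benjamini-Hochberg value 0.4). The number of reads limits what can be seen there. Sequencing errors are part of these percentages and were not separated from edited bases.

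The 3 changes with the highest level in any profile are named by position in miR-22-3p, counted from 1 at its 5’ end, with 0 for the nucleotide before it. A0C reached 97.5% in the spinal cord (77 of 79 reads, 95% Wilson interval 91.2% to 99.3%). It concerns few molecules, since reads that begin 1 nucleotide early were rare. In all, 1620 such reads began with C and 289 with the templated A, and those with C amounted to 0.0760% as a ratio to the exact 3p reads. A14C reached 0.607% in small intestine 1 (304 of 50052 reads, interval 0.543% to 0.679%) and was 0.469% in the occipital lobe, its lowest value. A2G, which lies in the seed and is the kind of change that A-to-I editing leaves, reached 0.436% in large intestine 1 (148 of 33975 reads, interval 0.371% to 0.511%) and had a median of 0.358%. The other A-to-G changes with at least 10 changed reads reached between 0.260% (A18G, large intestine 2) and 0.361% (A15G, spinal cord). The levels of A14C and of the A-to-G changes lay below the minimum editing level that the paper set for a significant site. Those of A0C lay above it.

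The miRNAs whose levels were most like those of miR-22-3p were sought among 371 others whose levels averaged 5 RPTM or more with an SD of 1 or more. Likeness was the Pearson r of log2 levels over the 12 profiles, which share their libraries and depth. The highest values belonged to miR-193b-3p (0.97), miR-365-1-3p (0.92), miR-193b-5p (0.87), miR-152-5p (0.87) and miR-152-3p (0.87), while the median over all 371 was 0.06.

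miR-193b-3p had 934 RPTM in muscle 1, 2807 RPTM in muscle 2 and 189 RPTM in liver, its 3 highest values, and between 12.7 and 111 RPTM elsewhere. miR-365-1-3p, whose sequence is the same in miR-365-2, had its highest values in the same profiles, at 239, 447 and 100 RPTM. In the RefSeq table MIR193B and MIR365-1 lie within 20000 nucleotides of each other. miR-152-3p varied less, from 18.3 RPTM in the occipital lobe to 64.1 RPTM in liver.

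The list rested in part on muscle. Without muscle 1, 3 of the 5 miRNAs stayed among the first 5, and the red-cell miRNA miR-451-5p came next after miR-193b-3p. With TMM factors, or with a filter at a mean of 1 RPTM, 3 stayed as well. With Spearman's rho 1 of them did, miR-193b-3p. The lowest r belonged to miR-146a-5p (-0.76), miR-4446-3p (-0.68) and miR-141-5p (-0.67). miR-146a-5p, an immune-related miRNA, ranged from 186 RPTM in muscle 2 to 2587 RPTM in large intestine 2. miR-4446-3p was highest in the occipital lobe at 5080 RPTM. miR-141-5p, of the epithelial miR-200 family, was highest in large intestine 1 at 99.0 RPTM. With TMM factors these values became -0.28, -0.93 and -0.37 in the same order.

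**Figure D5:**
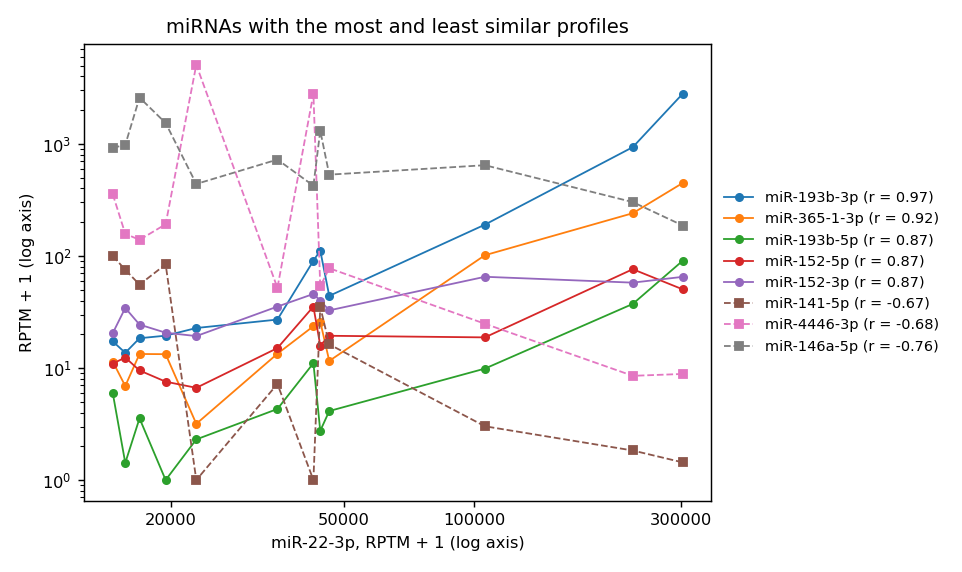
Levels of the 5 miRNAs with the highest Pearson r to miR-22-3p (solid lines) and the 3 with the lowest (dashed lines) against the level of miR-22-3p, in RPTM plus 1 on log axes, with 1 point per profile. The 2 rightmost points of each line are the muscle profiles, where miR-193b-3p reached 934 and 2807 RPTM.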

How the data were processed

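Small RNA libraries of 12 samples were sequenced by the authors on an Illumina instrument. The authors kept reads with high sequencing scores, removed the 3’ adapter and deposited 1 list of unique sequences with their counts per profile, without normalization. The totals of 22118095 to 25579064 reads make 1 read worth about 0.4 RPTM.

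The hairpins were taken from the study's supplementary list. Sequences were matched exactly, or with a 3’ tail of 1 to 2 nucleotides after at least 18 templated ones, or with 1 mismatch. Levels were read counts per 10000000 valid reads. The analysis used Python 3.11.15, numpy 2.4.6, pandas 2.3.3, scipy 1.17.1, matplotlib 3.10.9, RNAfold 2.7.2, R 4.3.3, edgeR 4.0.16 (TMM) and DESeq2 1.42.0 (size factors). No count model was fitted. The classification of reads and the permutation test were tested on simulated data.

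miR-22 and the marker lists were chosen with earlier results of these data known. The named miRNAs were the 5 with the highest and the 3 with the lowest r. The named reads were the 8 most abundant of 3p and the 4 of 5p, and the named changes the 3 with the highest level in a profile with at least 10 changed reads. Alternatives were other scales, assignment rules, pseudocounts, filters and tail rules, a replicate block, and leaving out each of the 8 profiles in tissues with 2 profiles.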

Additional observations from a re-analysis of the deposited data

Results flagged for a closer look

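Reads that still carried the first 5 letters of the 3’ adapter were not used for levels, ends or tails, and the report uses them only for the letter at position 22. Among reads that begin with the first nucleotides of miR-22-3p, they made up between 0.775% in the spinal cord and 1.87% in the occipital lobe, and the cause was not tested. No group had the 4 samples needed to look for a sample far from the others.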

How the results depend on the processing

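The log2 range of miR-22-3p over tissues, 4.07, became 4.76 with TMM factors, 4.73 with DESeq2 size factors and 4.31 with identical reads only. It stayed within the pooled SD with the other 4 scales, rules and pseudocounts, and between 3.88 and 4.26 when 1 profile was left out. The percent of annotated ends, 78.6%, became 59.5% when tailed reads were added to the denominator, and lay between 78.1% and 79.1% without 1 profile. The range of miR-22-5p, its share, and the percents of any tail, A tails and C tails moved by less than their SD. Without 1 profile these lay between 3.66 and 4.60, 0.0178% and 0.0185%, 21.8% and 25.7%, 0.937% and 1.08%, and 18.1% and 22.9%. The settings for C tails were chosen after seeing the data. The 5p share with identical reads only was 0.00830%, within an SD of 0.0109 that reflects few reads. RefSeq ends of the 5p arm were not run. Of the levels in single tissues under the 7 other scales and rules, 22 of miR-22-3p and 44 of miR-22-5p stayed within the SD, and 34 and 12 moved.

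For the substitutions no p passed 0.05. Without 1 profile it lay between 0.105 and 1.0 on the 3p arm and between 0.171 and 0.314 on the 5p arm. With the replicate number as a block the exact permutation p was 0.917 and 0.167. Same-numbered deviations correlated between -0.14 and 0.15 over 6 pairs of tissues, 1 of them below 0. These values cannot show whether same-numbered profiles came from the same animal. Of the likeness values, 78 stayed within the spread of leaving out profiles and 26 moved, none with a change of sign.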
